A study of Homo sapiens with 8 samples.

Results

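Lung mesenchyme identity transcription factors are the regulators that mark and maintain the fibroblast layer of the developing lung, and 10 of them were chosen by name for this account: TBX2, TBX3, TBX4, TBX5, FOXF1, FOXF2, TCF21, MEOX2, TWIST1 and TWIST2. All 10 were found by symbol among the 27696 genes of the count table, and 8 of them had enough reads to be tested, as had 13798 genes in all. The cells were IMR90, a line of primary human lung fibroblasts. They had been kept for 3 days in medium taken from IMR90-ER:RAS cells, which carry an oncogenic RAS fusion switched on by 4-OHT and become senescent. The medium was collected on day 0, 4, 7 or 10 of 4-OHT, and the recipient cells are called D0, D4, D7 and D10 after it. The D0 medium thus also came from ER:RAS cells, and every comparison below is against it. The recipients are a single cell line, and each group had 2 libraries, from 2 independent experiments. The question was whether the regulators of lung fibroblast identity kept their levels while myofibroblast genes were lost.

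T-box factors are DNA-binding proteins that pattern limbs, heart and lung. TBX4 and TBX5 drive lung bud outgrowth, and TBX2 and TBX3 are repressors that keep lung mesenchyme proliferating and are known to repress inhibitors of the cell cycle. FOXF1 and FOXF2 are forkhead factors that act downstream of hedgehog signals from the lung epithelium. TCF21, TWIST1 and TWIST2 belong to the basic helix-loop-helix family, whose members pair with E proteins and bind a short DNA motif called the E-box. TCF21 marks lipid-storing fibroblasts of the lung, the TWIST factors are known for mesenchymal state and for restraining senescence, and MEOX2 is a homeobox factor of mesoderm. Myofibroblasts, in contrast, are defined by contractile proteins such as the smooth muscle actin ACTA2.

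Libraries held between 11708193 and 13395912 counts, and levels are given in CPM (counts scaled to a common library total) after scaling by edgeR's TMM method. The 2 D10 libraries differed from each other. D10 of experiment 2 had 1295 CPM of the collagen gene COL1A1 against 9432 in D10 of experiment 1, and 3012 CPM of the chemokine gene CXCL8 against 189. Over all tested genes, the standard deviation of the log2 difference between a group's 2 libraries was 0.764 at D10. It was 0.621 at D0, 0.697 at D4 and 0.568 at D7. With 2 libraries, it cannot be told which of them is the less typical. Fibroblast markers made up between 21595 and 58769 CPM in each library. The 9 epithelial markers in the table summed to between 1.97 and 4.10 CPM and the 7 leukocyte markers to between 1.53 and 4.11 CPM. The 7 endothelial markers summed to between 42.6 and 121.8 CPM, nearly all of it TEK, with PECAM1 at or below 0.993 CPM. In bulk RNA, fewer cells expressing a gene and less RNA per cell cannot be told apart.

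The sequences just upstream of RefSeq starts at 3 loci are shown because the results below turn on these genes or their neighbours. The RefSeq promoter table of GRCh38.p14 held 6 of the 10 factors, and the 250 bases before the start are printed for TCF21 (chr6:133888863-133889112, plus strand), whose level moved most, for TBX5 (chr12:114408443-114408692, minus strand), which has an antisense partner here, and for FENDRR (chr16:86508861-86509110, minus strand), the noncoding gene beside FOXF1. Capitals mark E-boxes (CANNTG) in TCF21 and TBX5 and a forkhead motif (TGTTTAC, here on the opposite strand and so read as its complement) in FENDRR.
TCF21: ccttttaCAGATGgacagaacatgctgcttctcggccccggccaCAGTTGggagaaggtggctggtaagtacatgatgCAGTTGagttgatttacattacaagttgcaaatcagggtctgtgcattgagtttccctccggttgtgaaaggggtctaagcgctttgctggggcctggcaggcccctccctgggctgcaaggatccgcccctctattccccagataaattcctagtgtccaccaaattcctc
TBX5: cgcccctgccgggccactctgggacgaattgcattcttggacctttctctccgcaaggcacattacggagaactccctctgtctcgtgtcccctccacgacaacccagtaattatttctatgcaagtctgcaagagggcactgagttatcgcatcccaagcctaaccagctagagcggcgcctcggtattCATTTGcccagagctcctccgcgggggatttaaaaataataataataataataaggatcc
FENDRR: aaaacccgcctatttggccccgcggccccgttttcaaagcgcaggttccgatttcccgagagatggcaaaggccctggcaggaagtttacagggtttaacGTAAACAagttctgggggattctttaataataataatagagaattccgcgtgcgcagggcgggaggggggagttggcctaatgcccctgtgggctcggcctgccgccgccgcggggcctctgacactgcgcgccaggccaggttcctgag
TCF21 has 3 E-boxes in this window and TBX5 has 1. TBX5 has another RefSeq promoter, not printed, whose window (chr12:114408013-114408262) holds 0 E-boxes and 20 CpG dinucleotides. Among 35116 promoters of the same length, 61.8% held at least 1 E-box on either strand and 10.4% held 3 or more. FENDRR has 1 forkhead motif, which 2.98% of promoters held. None of the 3 windows held the T-box half-site AGGTGT, which was found in 9.57% of promoters, or the motifs known as kappaB (9.96%) and CArG (1.16%), both searched on both strands. The TCF21 window has 5 CpG dinucleotides, fewer than the 13 of TBX5 and the 19 of FENDRR. Such matches describe the letters only.

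Per kilobase of exon, FOXF1 had the highest level of the 8 tested factors at D0 and TWIST1 the lowest. At D0, FOXF1 had 76.0 and 64.0 CPM per kilobase in experiments 1 and 2, above 96.0% of tested genes by its mean. TBX2 came next with 37.7 and 36.2, followed by FOXF2 with 27.4 and 19.1, and the libraries of these 3 genes did not overlap. TCF21 (15.9 and 14.5), TWIST2 (16.2 and 11.9), TBX3 (11.1 and 12.5) and TBX5 (12.3 and 11.2) formed a middle group in which each neighbour in the order overlapped the next. TWIST1 was the lowest tested factor, with 6.31 and 6.70 CPM per kilobase. At D10 the order began with FOXF1 (87.7 and 100.5), TCF21 (30.7 and 139) and TBX2 (56.2 and 74.5), where TCF21 overlapped both others. TBX3, FOXF2 and TWIST2 overlapped their neighbours at D10, while TBX5 (9.54 and 7.59) and TWIST1 (4.28 and 5.78) stayed at the bottom without overlap.

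**Figure D1:**
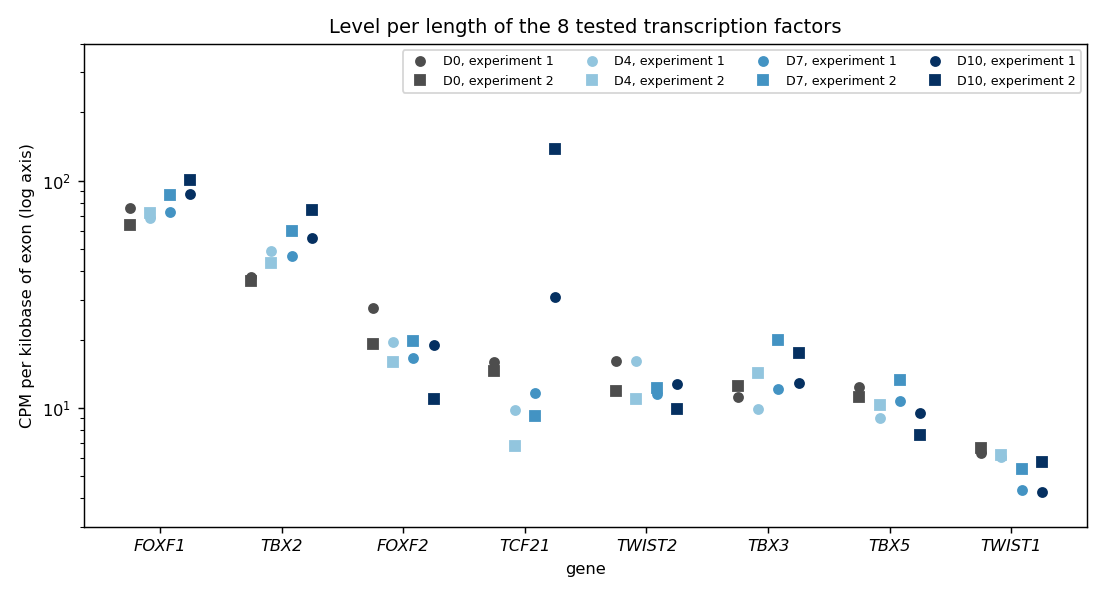
Level per kilobase of exon (CPM per kilobase, log axis) of the 8 tested factors, ordered by their mean at D0, with a circle for each library of experiment 1 and a square for experiment 2. FOXF1 and TBX2 lead at D0, and the D10 square of TCF21, at 139, lies far above its D10 circle, at 30.7.

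TBX4 and MEOX2 were at the floor of detection. TBX4 (ENSG00000121075.9, chr17:61452404-61485110, plus strand) had 2 and 3 counts in the D0 libraries, 3 and 2 in those of D4, 4 and 1 in those of D7 and 3 and 4 in those of D10. MEOX2 (ENSG00000106511.5, chr7:15611212-15686812, minus strand) had 0 and 1 counts at D0, none in the 4 libraries of D4 and D7, and 2 in each D10 library. A count of 0 allows a level of up to 3 counts, or between 0.218 and 0.251 CPM in these libraries, for counting error only. No difference between media was detectable for these 2 genes at this depth. TBX4 lies 42937 bases from TBX2, a gene with at least 218 CPM in every library.

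In edgeR's test without a term for experiment, no tested factor passed the threshold of an adjusted p under 0.05 in any comparison. The 8 factors gave 0 calls at D4, where edgeR called 0% of 13798 tested genes, 0 calls at D7 (again 0% of all genes) and 0 calls at D10, where it called 0.290% of all genes. Among the 4 media together 0 factors were called, against 0.0870% of all genes. At an unadjusted p under 0.05 there were 0 factors at D4, 0 at D7, 2 at D10 (TBX2 and TCF21) and 1 (TCF21) over the 4 media. The experiments pair the libraries, and a fit with experiment as a block called 1 factor higher at D10, TBX2, where it called 2.54% of all genes higher, and 1 factor over the 4 media, TCF21, against 3.33% of all genes. DESeq2 called 1 factor higher at D10, TCF21, against 1.22% of its genes, and the same factor over the 4 media, against 2.09%.

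At D10 the factors split evenly by direction. Both D10 libraries lay above both D0 libraries for 4 of the 8 factors (TBX2, TBX3, FOXF1 and TCF21), against 15% of tested genes. Both lay below for 3 (TBX5, FOXF2 and TWIST1), against 16% of tested genes. TWIST2 overlapped. In the ratios within an experiment, 4 factors were higher and 4 lower at D10 in both experiments, whereas at D7 4 of the 8 had opposite signs in the 2 experiments. Over all tested genes 31.1% were higher and 32.3% lower in both experiments at D10, and 37.6% had opposite signs at D7. Their median log2 fold change was -0.06 at D4, -0.10 at D7 and 0.03 at D10, beside a median of 0.00 over all tested genes at D10. In the fit without the block, the 95% interval of the D10 log2 fold change stayed within -1 and 1 for 4 of the 8 (TBX5, FOXF1, TWIST1 and TWIST2). This share was close to the 46.3% of all tested genes for which it did. Without D10 replicate 2 the D10 log2 fold changes were 0.61 for TBX2, 0.13 for TBX3, -0.30 for TBX5, 0.33 for FOXF1, -0.60 for TWIST1 and -0.13 for TWIST2. Without D10 replicate 1 they were 1.03, 0.57, -0.61, 0.54, -0.15 and -0.49 in the same order. Each kept the sign it had with all libraries. The values of FOXF2 and TCF21 are given with these genes.

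**Figure D2:**
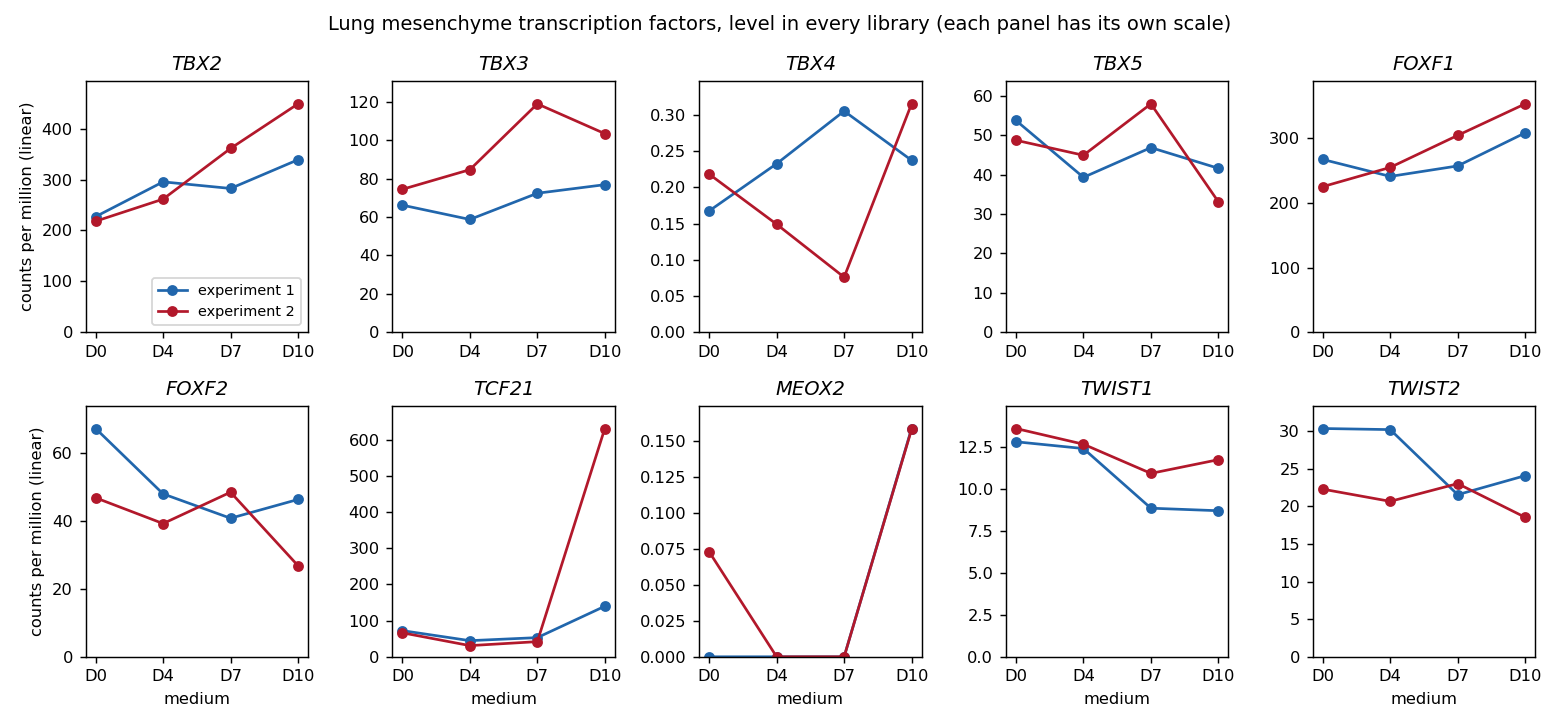
Level of each of the 10 factors in CPM (linear axes that start at 0, with a separate scale per panel) by medium, with a line for each experiment. TBX2 climbs above its D0 values (227 and 218) in all later libraries, TCF21 reaches 630.4 in D10 of experiment 2, and TBX4 and MEOX2 stay below 1 CPM.

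TBX2 (ENSG00000121068.13, chr17:61399896-61409466, plus strand) was higher in every later library than at D0. It had 227 and 218 CPM in the D0 libraries, 296 and 262 in those of D4, 283 and 361 in those of D7 and 339 and 449 in those of D10. All 6 later libraries lay above both D0 libraries, a pattern found in 3.18% of tested genes. Its log2 fold change was 0.32 at D4, 0.53 at D7 and 0.82 at D10 (standard error 0.25, 95% interval 0.24 to 1.41, edgeR adjusted p = 0.307). With the replicate block the D10 value was 0.81 and the adjusted p 0.0486, at the edge of the threshold, and over all alternatives run the adjusted p lay between 0.0486 and 0.979. Within experiment 1 the D10 level was 1.49 times that of D0 and within experiment 2 it was 2.06 times. TBX2-AS1, a noncoding gene on the opposite strand around TBX2 with which it shares no exon bases, had a log2 fold change of 0.77 at D10 (adjusted p = 0.419, or 0.0974 in the blocked fit), from 7.88 and 7.28 CPM at D0 to 11.6 and 14.2 at D10.

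TBX3, the closest relative of TBX2, did not pass the threshold under any setting. TBX3 (ENSG00000135111.15, chr12:114670254-114684164, minus strand) had 66.2 and 74.5 CPM in the D0 libraries, 58.7 and 84.7 in those of D4, 72.4 and 119 in those of D7 and 76.9 and 103.5 in those of D10. The D4 libraries lay on both sides of D0, and both D10 libraries were above it. Its D10 log2 fold change was 0.36 (standard error 0.31, 95% interval -0.36 to 1.08, edgeR adjusted p = 0.998, or 0.304 in the blocked fit). In all 4 media TBX3 was higher in experiment 2 than in experiment 1.

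TBX5, which lies 261811 bases from TBX3 on chromosome 12, was lower at D10 in both experiments. TBX5 (ENSG00000089225.19, chr12:114353931-114408442, minus strand) had 53.8 and 48.8 CPM in the D0 libraries, 39.3 and 45.0 in those of D4, 46.9 and 58.0 in those of D7 and 41.6 and 33.1 in those of D10. D7 overlapped D0, while D4 and D10 were below it. The D10 log2 fold change was -0.46 (standard error 0.22, 95% interval -0.97 to 0.05, edgeR adjusted p = 0.727, or 0.212 in the blocked fit). Its antisense partner TBX5-AS1, which starts 251 bases away, had -0.38 at D10 (adjusted p = 0.962, or 0.284 in the blocked fit), with 67.5 and 55.2 CPM at D0 and 57.9 and 36.4 at D10. The 2 genes overlap over 5.78% of TBX5's exon bases, and whether reads were counted by strand is not given in the sources used here.

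FOXF1 (ENSG00000103241.6, chr16:86510527-86515418, plus strand), the factor with the highest level per kilobase, did not pass the threshold at D10. It had 267 and 225 CPM in the D0 libraries, 241 and 255 in those of D4, 257 and 304 in those of D7 and 308 and 353 in those of D10. Only the D10 libraries were both above D0. The log2 fold change was 0.01 at D4, 0.19 at D7 and 0.43 at D10 (standard error 0.23, 95% interval -0.10 to 0.95, edgeR adjusted p = 0.814, or 0.237 in the blocked fit), so that a change of more than 2-fold in either direction lies outside the interval. FENDRR, the noncoding gene that starts 1428 bases from FOXF1 and runs the other way, had a similar value. It had 283 and 269 CPM at D0 and 365 and 371 at D10, a log2 fold change of 0.41 (adjusted p = 0.818, or 0.215 in the blocked fit). The ratio of FENDRR to FOXF1 in CPM stayed between 1.05 and 1.25 across the 8 libraries. LINC01081, another noncoding gene of this locus, had at most 21 counts in a library and -0.32 at D10 (adjusted p = 0.998), with a value from -0.71 to 0.12 when 1 library was left out.

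FOXF2 (ENSG00000137273.3, chr6:1389576-1395603, plus strand) lay below D0 in D10 of both experiments, on the other side of zero from FOXF1. It had 67.2 and 46.8 CPM in the D0 libraries, 48.0 and 39.2 in those of D4, 40.8 and 48.5 in those of D7 and 46.3 and 26.8 in those of D10. The D10 libraries were both below the lower D0 library, 1 of them by less than 1 CPM. Its D10 log2 fold change was -0.64 (standard error 0.31, 95% interval -1.36 to 0.08, edgeR adjusted p = 0.734, or 0.159 in the blocked fit). This FOXF2 value moved to -0.30 when D10 replicate 2 was dropped from the fit, and to -1.07 when replicate 1 of D10 was dropped instead. The ratio of FOXF1 to FOXF2 in CPM was 3.98 and 4.81 at D0, between 5.02 and 6.50 at D4 and D7, and 6.66 and 13.2 at D10, and so was highest in the D10 libraries of both experiments. This ratio was not tested. The genes share 0.548% of FOXF1's 50-base words.

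TCF21 (ENSG00000118526.6, chr6:133889138-133895553, plus strand), the gene with 3 E-boxes in the window printed above, had the widest range of the factors. It had 72.2 and 66.2 CPM in the D0 libraries, 44.5 and 30.9 in those of D4, 52.9 and 41.8 in those of D7 and 139.6 and 630.4 in those of D10. The D4 and D7 libraries all lay below D0 and both D10 libraries above it, so the direction against D0 differed between the earlier media and D10 in both experiments. The log2 fold change was -0.88 at D4, -0.55 at D7 and 2.48 at D10. At D10 the standard error was 0.61 and the 95% interval ran from 1.06 to 3.89.

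The call for TCF21 depended on the fit. At D10 edgeR gave an adjusted p of 0.170, or 0.0533 with the replicate block, and DESeq2 gave 6.7e-04. Over all alternatives at D10 the adjusted p ranged from 6.7e-04 to 0.700. For any difference among the 4 media the adjusted p was 0.177, or 0.0345 with the block and 3.6e-09 with DESeq2. Within experiment 1 the D10 level was 1.93 times that of D0, and within experiment 2 it was 9.51 times. Without D10 replicate 2 the log2 fold change was 1.01 (adjusted p = 0.483), and without D10 replicate 1 it was 3.20 (adjusted p = 0.00825). D10 replicate 2 is the library with the high CXCL8 and low COL1A1 given above, and the part of that difference in the TCF21 level was not tested.

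TARID, a noncoding gene read from the opposite strand, covers 30.4% of the exon bases of TCF21, and without knowledge of the strand setting their reads cannot be told apart there. TARID had 14 and 14 counts in the D0 libraries, 5 and 7 in those of D4, 4 and 15 in those of D7 and 7 and 74 in those of D10. Its counts were between 0.397 and 2.72 per 100 counts of TCF21. In D10 of experiment 1 TARID was below its D0 level, at 0.534 times, while TCF21 was above. The fitted log2 fold change of TARID was 1.54 (adjusted p = 0.910, or 0.431 in the blocked fit) and it was -0.97 without D10 replicate 2.

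TWIST1 and TWIST2, which are known to repress CDKN2A and to support mesenchymal identity, had negative log2 fold changes at D10, with neither past the threshold. TWIST1 (ENSG00000122691.12, chr7:19020991-19117672, minus strand) had 12.8 and 13.6 CPM in the D0 libraries, 12.4 and 12.7 in those of D4, 8.86 and 10.9 in those of D7 and 8.71 and 11.8 in those of D10. All 6 later libraries lay below both D0 libraries, a pattern of 4.74% of tested genes, by margins that were small at D4. Its D10 log2 fold change was -0.37 (standard error 0.26, 95% interval -0.97 to 0.23, edgeR adjusted p = 0.971, or 0.347 in the blocked fit). TWIST2 (ENSG00000233608.3, chr2:238848032-238910543, plus strand) had 30.3 and 22.3 CPM in the D0 libraries, 30.2 and 20.7 in those of D4, 21.5 and 23.0 in those of D7 and 24.1 and 18.5 in those of D10. The groups overlapped, and its D10 log2 fold change was -0.30 (standard error 0.28, 95% interval -0.95 to 0.34, edgeR adjusted p = 0.998, or 0.450 in the blocked fit). A noncoding gene on the opposite strand covers 6.94% of TWIST1's exon bases.

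Against these factors stood 9 myofibroblast and contractile genes that the study had singled out on these samples, in its text or its display of them, so that their direction is not independent evidence. Their median log2 fold change was -0.38 at D4, -0.78 at D7 and -1.54 at D10. All 9 had both D10 libraries below both D0 libraries, and 0 of the 9 had a D10 interval within -1 and 1. At D10 edgeR called 2 of them lower (ACTA2 and the troponin gene TNNT2), against 0.0942% of all tested genes called lower, and with the block 8 of them, against 2.45%. ACTA2 fell, with 1347 and 1164 CPM in the D0 libraries, 712 and 516 in those of D4, 491 and 319 in those of D7 and 225 and 145 in those of D10 (log2 fold change -2.76, standard error 0.36, adjusted p = 0.0399). This call was lost when any library other than D10 replicate 1 was left out, with an adjusted p of up to 0.215, while the log2 fold change stayed between -3.09 and -2.48. The same held for the call of TNNT2, with an adjusted p of up to 0.244.

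The D0 libraries held 33 and 37 counts of TNNT2 and the D10 libraries 1 and 0, which is a fall of at least 11.5-fold (edgeR adjusted p = 0.0402). Of the other 7 genes, 6 reached the threshold with the block but not in edgeR's test without it, and DESeq2, run without a block, called all of the 9 except TPM2. ACTG2, the enteric smooth muscle actin, had a log2 fold change of -1.83 (adjusted p = 0.0947, or 0.00172 in the blocked fit), the actin-binding gene TAGLN -1.54 (0.131, or 0.00332 in the blocked fit) and the adrenergic receptor gene ADRA1B -2.02 (0.110, or 0.00333 in the blocked fit). The calponins CNN1, CNN2 and CNN3 had -1.42, -1.01 and -0.93, with adjusted p between 0.134 and 0.206, and between 0.00448 and 0.0181 with the block. TPM2, a tropomyosin, had -0.70 and passed neither fit (0.857, or 0.0974 in the blocked fit).

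**Figure D3:**
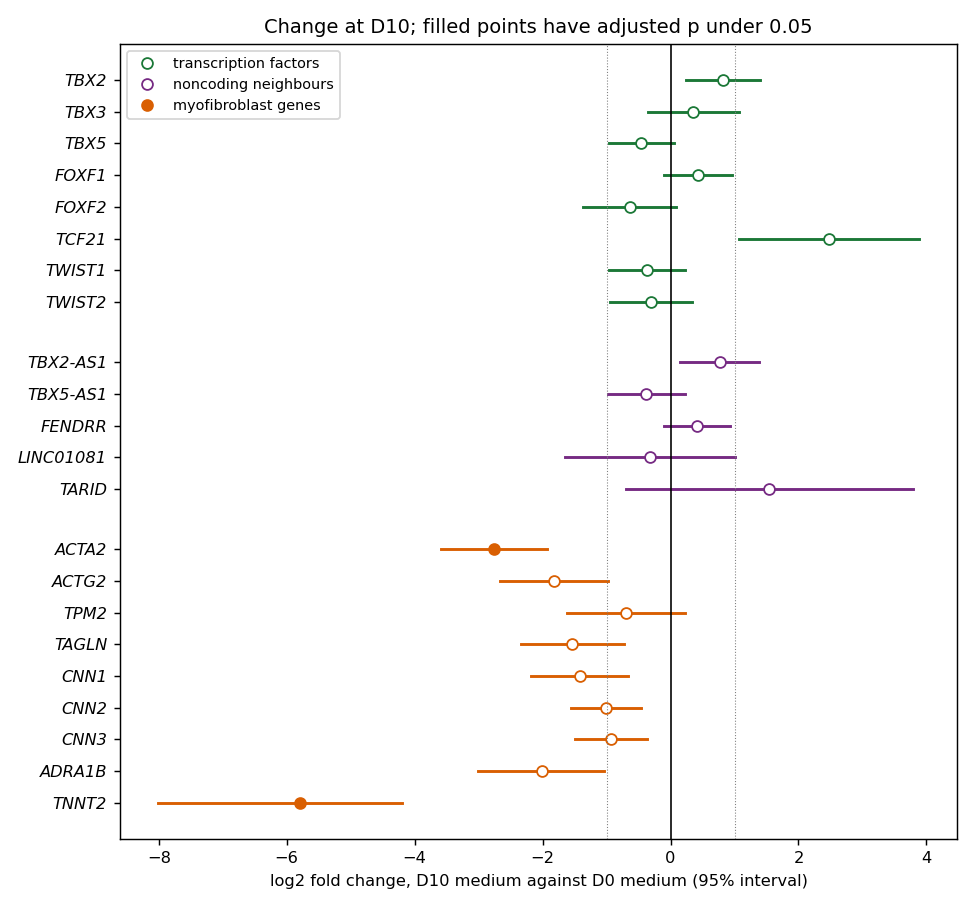
Log2 fold change at D10 against D0 with its 95% interval for the 8 tested factors, 5 noncoding neighbours and the 9 myofibroblast genes, where filled points have an edgeR adjusted p under 0.05 and dotted lines mark -1 and 1. The factors lie between -0.64 and 0.82 except TCF21 at 2.48, while the myofibroblast genes lie between -0.70 and the fitted -5.80 of TNNT2, which is near 0 counts at D10.

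Library by library, the median log2 CPM of the 8 factors was 6.06 and 5.83 at D0 and 5.90 and 5.88 at D10. In between it was lower, at 5.54 and 5.40 with D4 medium and 5.64 and 5.73 with D7 medium. That of the 9 myofibroblast genes was 9.41 and 9.15 at D0, then 9.25 and 8.73 with D4 medium, 8.79 and 8.32 with D7 medium and 7.82 and 7.36 with D10 medium. At D4 this median level was further below D0 for the factors than for the myofibroblast genes in experiment 1. It was about as far below in experiment 2. Gene by gene the order was the reverse. The median log2 ratio of D4 to D0 was -0.16 and -0.10 for the factors in experiments 1 and 2. It was -0.30 and -0.40 for the myofibroblast genes. At D10 the factors' median level was within 0.2 of D0 in each experiment. That of the myofibroblast genes was more than 1.5 below it. The factors' median does not show that each factor held its level, since 4 were higher and 4 lower in both experiments. Gene by gene, the median log2 ratio of D10 to D0 was -0.06 and 0.13 for the factors in experiments 1 and 2. For the myofibroblast genes it was -1.67 and -1.59. The ratio of FOXF1 to ACTA2 in CPM was 0.198 and 0.193 in the D0 libraries, 0.338 and 0.494 in those of D4, 0.524 and 0.953 in those of D7 and 1.37 and 2.43 in those of D10. For TBX2 to ACTA2 it was 0.169 and 0.187 at D0 and 1.50 and 3.09 at D10. Both ratios were higher in each successive medium within each experiment. ACTA2, the denominator of both, fell at each of these steps, so a factor with a constant level would also give a rising ratio. FOXF1 and TBX2 are among the 4 factors whose D10 libraries both lay above D0, and ratios of the lower factors are not given. These are descriptions of 2 experiments, and no test of the difference between the gene groups was made.

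**Figure D4:**
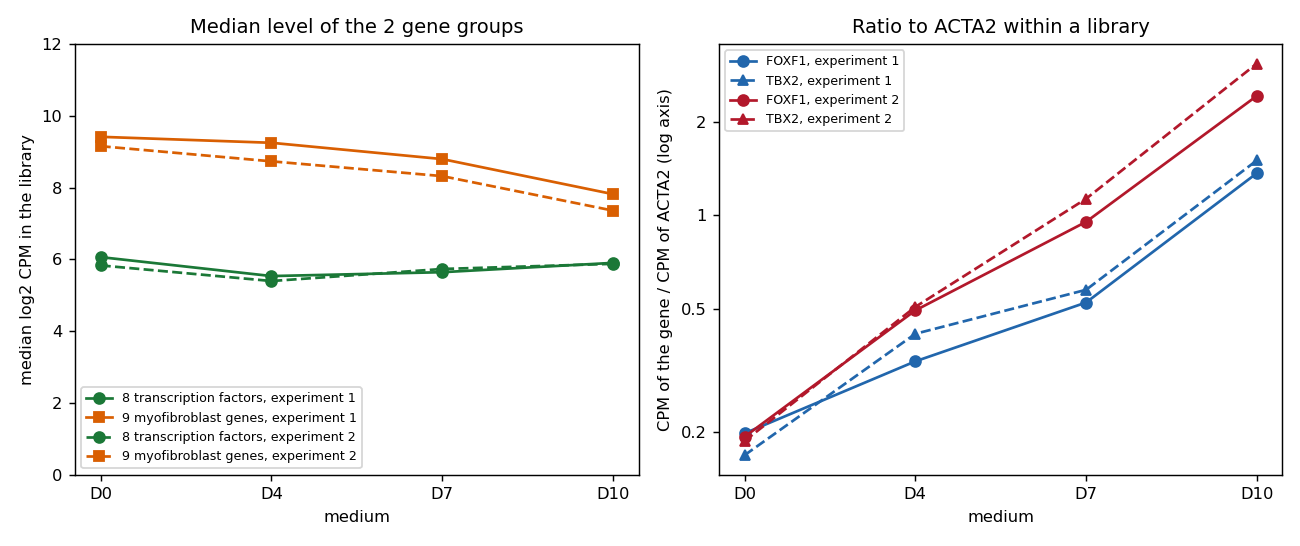
Left, the median log2 CPM of the 8 tested factors and of the 9 myofibroblast genes in every library by medium, with solid lines for experiment 1 and dashed lines for experiment 2. Right, the CPM of FOXF1 and of TBX2 divided by that of ACTA2 in the same library (log axis), which goes from 0.198 and 0.193 at D0 to 1.37 and 2.43 at D10 for FOXF1. The fall of ACTA2 by itself raises these ratios.

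Among 27 tested mesenchymal transcription factors of other families edgeR called 0 at D10, with a median log2 fold change of -0.06 and a range from -1.67 to 0.78. With the block 3 were called lower: OSR1, a zinc finger factor of early lung mesoderm, SNAI2, a repressor of epithelial genes, and NR2F2, a nuclear receptor that was singled out after its value was seen. OSR1 had 40.1 and 44.2 CPM at D0 and 16.9 and 9.47 at D10 (log2 fold change -1.67, adjusted p = 0.0810, or 0.00413 in the blocked fit). SNAI2 had 78.9 and 80.7 CPM at D0 and 30.7 and 42.4 at D10 (-1.13, adjusted p = 0.128, or 0.00448 in the blocked fit), and NR2F2 had -1.12 (0.182, or 0.0155 in the blocked fit).

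HOX genes, which record position along the body axis, had small log2 fold changes at D10. Of 13 tested HOX genes of the lung 0 were called by edgeR or with the block at D10, with a median of 0.10 and a range from -0.26 to 0.59. At D4 and D7 their medians were higher, at 0.24 and 0.35, with values up to 0.83 and 0.76, and 0 were called by either fit. HOXA7 had a D10 log2 fold change of 0.59 with at most 1.58 CPM. It was at -0.51 without D10 replicate 2 and at 1.21 without D10 replicate 1. Of 13 distal HOX genes 6 were in the table, and none of these had more than 3 counts in a library.

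Signals to and from lung mesenchyme had log2 fold changes from -4.88 to 2.21. Of 12 tested genes edgeR called 0 at D10, with a median of 0.10, and with the block 6 were called, 3 higher and 3 lower. WNT2, a ligand of early lung mesenchyme, had 10.8 and 19.9 CPM in the D0 libraries, 1.55 and 4.55 in those of D4, 1.37 and 5.39 in those of D7 and 0.475 and 0.552 in those of D10 (log2 fold change -4.88, adjusted p = 0.0716, or 7.2e-04 in the blocked fit). FGF9, a growth factor, had 9.72 and 16.3 CPM at D0 and 1.35 and 2.52 at D10 (-2.74, adjusted p = 0.0779, or 0.00125 in the blocked fit). The other 4 genes called with the block, named after their values were seen, were BMP4 (-1.63), the BMP antagonist GREM1 (2.21), the epithelial growth factor FGF7 (1.78) and the signal inhibitor SPRY2 (0.77). FGF10, the ligand of the lung bud, had at most 2 counts in a library.

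Of 12 tested hedgehog pathway genes, the signal upstream of FOXF1 and FOXF2, edgeR called 0 at D10, with a median of -0.47 against 0.00 over all tested genes. The hedgehog co-receptor gene GAS1 had 5.95 and 10.8 CPM at D0 and 2.77 and 4.73 at D10 (-1.16, adjusted p = 0.566, or 0.0437 in the blocked fit). The target gene GLI1 had 1.14 (adjusted p = 0.800), from 0.838 and 0.946 CPM at D0 to 0.950 and 3.00 at D10. GLI1 was thus near its D0 level in experiment 1 and above it in experiment 2, and its value was 0.09 without D10 replicate 2.

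The known partners and antagonists of the helix-loop-helix factors had values on both sides of zero. Of 8 tested genes edgeR called 0 at D10, with a median of 0.32. ID2, whose protein binds E proteins and keeps them from DNA, had 24.2 and 26.1 CPM at D0 and 7.52 and 5.13 at D10 (-1.99, adjusted p = 0.156, or 0.0241 in the blocked fit). Its relative ID3 had 29.5 and 16.7 CPM at D0 and 85.1 and 36.8 at D10 (1.40, adjusted p = 0.405, or 0.0793 in the blocked fit), in the direction opposite to that of ID2.

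Of the 6 tested cell cycle inhibitors, among them the known targets of TBX2, TBX3 and TWIST proteins, 0 were called by edgeR or with the block at D10, and the values ran from -0.42 to 0.23. CDKN2A had 48.5 and 35.6 CPM at D0 and 40.0 and 23.0 at D10 (-0.42, adjusted p = 0.998, or 0.151 in the blocked fit). It was at -0.07 without D10 replicate 2 and at -0.85 without D10 replicate 1. CDKN1B had -0.26 (adjusted p = 0.998). CDH1, the epithelial cadherin that TWIST proteins repress, had at most 3 counts in a library.

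**Figure D5:**
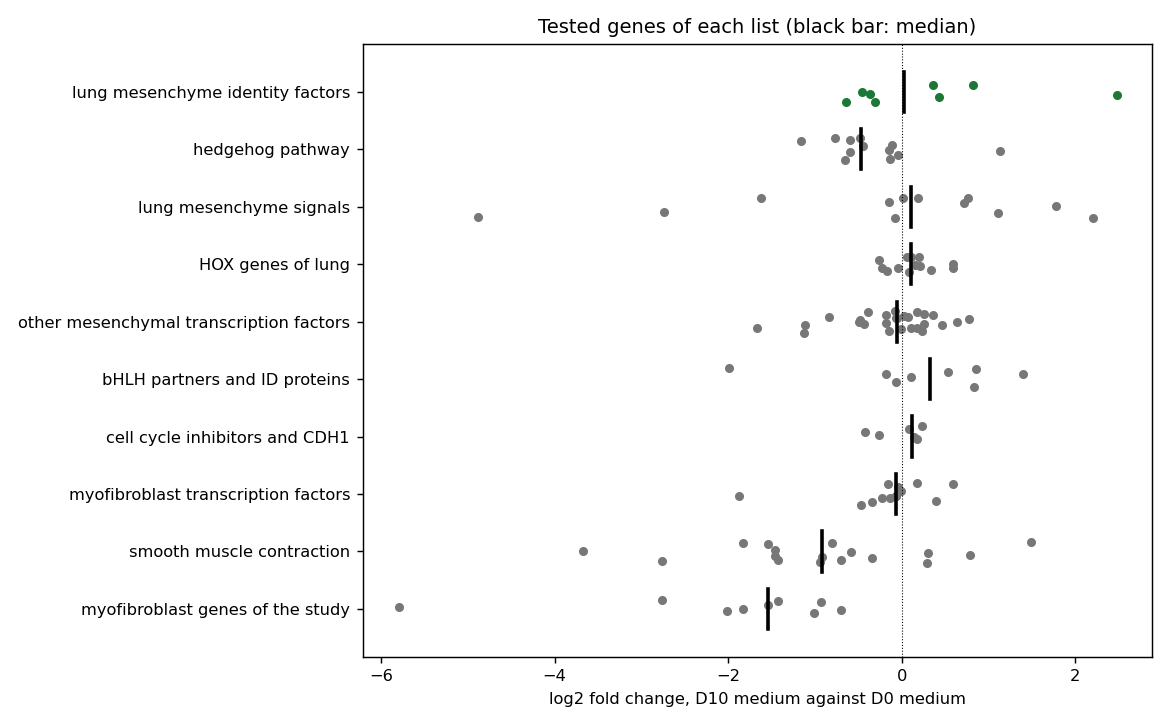
Log2 fold change at D10 against D0 of each tested gene in 10 gene lists, with a black bar at each list's median. The median of the lung mesenchyme identity factors is 0.03, that of the hedgehog genes -0.47 and that of the myofibroblast genes -1.54.

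Of 13 tested myofibroblast transcription factors 0 were called by edgeR or with the block at D10, with a median of -0.07. MYOCD, the smooth muscle coactivator, had 6.54 and 3.13 CPM at D0 and 1.58 and 1.03 at D10 (-1.88, adjusted p = 0.274, or 0.0821 in the blocked fit), and MEF2D, a muscle transcription factor, had 0.59 (adjusted p = 0.455). Of 17 tested smooth muscle contraction genes, which share 5 genes with the list of 9 above, edgeR called 1 (ACTA2), the blocked fit 8 lower and 1 higher, and DESeq2 6 lower, and the median was -0.92.

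Marker genes give the background of cell identity. None of the 12 fibroblast markers was called by edgeR at D10. Their median log2 fold change was -0.60, beside 0.00 over all tested genes. Within experiments 1 and 2 the median log2 ratio was -0.31 and -0.82. In both experiments 9 of the 12 were lower and 0 higher, against 32.3% and 31.1% of all tested genes. The largest values were those of DCN, decorin (-1.55, adjusted p = 0.484, or 0.0362 in the blocked fit), and PDGFRB, a growth factor receptor (-1.37, adjusted p = 0.151, or 0.0181 in the blocked fit). DCN had 4340 and 3593 CPM at D0 and 2138 and 572 at D10, and with D10 replicate 2 left out its value was -0.89. In the other marker lists no gene was called without the block. In the epithelial list FOXA1, called with the block (edgeR adjusted p = 0.0448), went from 20 and 14 counts to 3 in each D10 library, at least 5.68-fold lower, and ELF3 had a log2 fold change of 2.15, both with at most 1.68 CPM. In the smooth muscle and pericyte list MYH11, a smooth muscle myosin called with the block (edgeR adjusted p = 0.0356), went from 12 and 17 counts to 2 and 0 with D10 medium, at least 4.73-fold lower. The tested genes of the other lists were TEK (0.24) and VWF (-0.23) among endothelial, CALB2 (-0.83) and KRT8 (-0.04) among mesothelial and CD68 (1.30) and CD14 (-0.34) among leukocyte markers. CALB2 was at -0.19 without D10 replicate 2 and at -1.96 without D10 replicate 1. The signs of TEK, VWF, KRT8 and CD14 turned when single libraries were left out. The inflammatory genes that mark the senescent secretome were higher at D10 in all 6 cases, and 2 of 6 were called by edgeR, IL1B (adjusted p = 0.0379) and CXCL1 (adjusted p = 0.0181), while the blocked fit called all 6. IL1B was at least 146-fold and CXCL1 at least 254-fold higher than at D0, or at least 49.9-fold and 123-fold without D10 replicate 2. The call of IL1B was lost in 7 of 13 alternatives (adjusted p up to 0.244) and that of CXCL1 in 3 of 13 (up to 0.211).

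The experiments were also compared with each other for each factor. For 32.0% of tested genes the 4 libraries of one experiment all lay above the 4 of the other, and this held for 0 of the 8 factors. Compared medium by medium, TBX3 and TWIST1 were higher in experiment 2 in all 4 media, as were 25.7% of tested genes, and 0 factors were higher in experiment 1 in all 4. The largest difference between the experiments was that of TCF21 at D10, 2.17 on the log2 scale in favour of experiment 2, after -0.13 at D0. For TWIST2 and FOXF2 experiment 1 was higher at D0, D4 and D10, by 0.29 to 0.78 on the log2 scale, and experiment 2 at D7.

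Within the group, some factors varied together over the 8 libraries once each experiment was centred on its own mean. These are correlations of log2 CPM over 8 libraries from 2 experiments, given as descriptions. TBX2 and FOXF1 had a Pearson r of 0.874, TBX5 and FOXF2 0.853, TBX3 and FOXF1 0.830, FOXF2 and TWIST2 0.796 and TWIST1 and TWIST2 0.761. TBX3 and TWIST1 had -0.744 and TBX5 and TCF21 -0.683, and the paralogs FOXF1 and FOXF2 had -0.466. The noncoding neighbours stood near the top of all genes for their partners, with 0.976 for TBX5 and TBX5-AS1, 0.974 for TBX2 and TBX2-AS1 and 0.905 for FOXF1 and FENDRR, each above the value of more than 99% of tested genes. TARID and TCF21 had 0.878, which 96.8% of genes stayed below, and LINC01081 and FOXF1 had -0.269. TARID had 74 counts in D10 of experiment 2, where TCF21 was also highest, and no more than 15 in any other library. The exons of TARID and TCF21 also overlap, and without the strand setting their reads cannot be told apart there.

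The genes named as most alike to each factor by this measure had r between 0.967 and 0.995. They were PDE9A (0.995), POLR3E and TBC1D1 for TBX2, and NUMA1 (0.981) and BCORL1 for TBX3. For TBX5 they were GTF2IP4 (0.979), a copy of a repeated gene whose reads are uncertain, HUNK and its own neighbour TBX5-AS1. For FOXF1 they were FAM60A (0.989), RWDD2A and SALL1, and for FOXF2 they were UBE2L6 (0.975), PIPOX and ID2. KLHL5 (0.993), GPCPD1 and CHST2 followed TCF21 most closely. C16orf89 (0.982), KCTD5 and LINC01535 did so for TWIST1, and LINC01081 (0.970), INAFM1 and the mesenchymal homeobox gene PRRX2 for TWIST2.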

How the data were processed

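IMR90 RNA from 8 samples (2 independent experiments, 4 media) was sequenced after poly(A) selection with a stranded kit. The table deposited by the authors gives unnormalized read counts for each gene, and the submitters' processing notes name STAR 2.5, DESeq2 and GRCh38. The strand setting is not given in the sources used here. The 8 columns of RPM values in the same table were not used, and 1 header reading DO was taken as D0. Members and gene lists were chosen with earlier results of these data known.

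Genes passing filterByExpr (13798) were scaled by TMM and tested with edgeR 4.0.16 (quasi-likelihood test, all 8 libraries, R 4.3.3), with Benjamini-Hochberg adjustment and a threshold of 0.05. DESeq2 1.42.0 was an alternative (likelihood ratio test over the 4 media), beside its size factors, other filters, the compared groups only, a replicate block and leaving out each library. The block was used because same-numbered libraries come from the same experiment, and their deviations correlated across genes with r from 0.418 to 0.722 in all 6 pairs of groups. Log2 CPM used a prior count of 2, and standard errors and 95% intervals came from the fit without the block. A group in which no library had more than 3 counts was set to that floor for bounds. Exon lengths, positions and overlaps are those of GENCODE 29 (GRCh38), which held 99.6% of identifiers, and promoters are RefSeq's. Scripts were tested on simulated data. The named genes are all members, noncoding neighbours with at least 10 counts in 1 library, the 9 myofibroblast genes, of each other list the genes past the threshold or else the 2 with the largest D10 change, and the 3 genes most correlated with each member. Some genes that this rule names are not reported here.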

Additional observations from a re-analysis of the deposited data

How the results depend on the processing

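Of 897 comparisons of a named fold change with an alternative, 805 kept their direction and their side of the threshold and 20 reversed. Genes called at D4, D7, D10 and over the 4 media, which were 0, 0, 40 and 12, numbered 44, 112, 379 and 332 with DESeq2 and 21, 93, 371 and 318 without a filter on low counts, and each of these settings called 1 factor (TCF21) at D10 and 1 over the 4 media. With the replicate block the counts were 38, 172, 688 and 460, with 1 factor called at D10 (TBX2) and 1 over the 4 media (TCF21), and no other call of a factor differed under the block. A minimum of 10 counts in every library left 20 calls at D10 and a myofibroblast median of -1.48, since it tests fewer of those genes. A fit of the compared groups only left 0 calls at D10, against 40 with all libraries. In edgeR's test with all libraries, 1095 of 13798 genes had an unadjusted p under 0.05 at D10. Leaving out 1 library gave 0 to 155 calls at D10 and 1 to 74 over the 4 media, 0 to 1 factors in each, a factor median from -0.014 to 0.19 (0.19 without D10 replicate 1) and a myofibroblast median from -1.74 to -1.37. The cause of these differences was not tested.

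Reversals came only from leaving out 1 library. The ranges were -0.26 to 0.26 for TBX3, -0.11 to 0.14 for FOXF1 and -0.35 to 0.20 for TWIST2 at D4, and -0.13 to 0.18 for TBX5 at D7. At D10 they were -0.97 to 2.42 for TARID, -0.71 to 0.12 for LINC01081, -0.51 to 2.54 for HOXA7, -0.13 to 0.54 for TEK, -0.70 to 0.14 for VWF, -0.24 to 0.19 for KRT8 and -0.91 to 0.58 for CD14. With 2 libraries a group, the factors' intervals at D10 are wide, and those of 4 of the 8 reach past a 2-fold change. They come from the fit without the block, which leaves out the pairing by experiment. The common dispersion, edgeR's estimate of the spread between libraries over all genes, was 0.0792 there and 0.0242 with the block. Intervals of the blocked fit are not given here.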
